A study of Mus musculus with 21 samples.

Results

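Megakaryocyte-erythroid progenitors (MEP) with the Etv6 P216L genotype were compared with wild-type (WT) MEP. The libraries were chosen by their labelled cell type and genotype: 3 of P216L MEP (replicates 1, 2 and 3) and 2 of WT MEP (replicates 1 and 3), which makes 5 of the 21 libraries of the series. RNA of the sorted mouse bone marrow cells was sequenced with a low-input protocol. The other MEP groups were S211I (n = 2) and a double mutant with S211I and P216L (n = 3). Hematopoietic stem cells (HSC) of the same 4 genotypes made up the rest of the series. The labels name no zygosity, strain, age, sex or sort markers. Nor do they tie libraries to separate mice, and p-values therefore speak only of variation among these libraries, part of which may be technical.

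Etv6 is a transcriptional repressor of the ETS family. Its ETS domain binds DNA with a GGAA core, its pointed domain joins molecules into oligomers, and it recruits co-repressor complexes with histone deacetylases. It is needed for the maintenance of adult HSC and for late megakaryocyte maturation, and germline changes in human ETV6 cause inherited thrombocytopenia with a predisposition to leukaemia. MEP stand where the red cell and platelet lineages part, and they express erythroid genes such as Klf1 and Car2 strongly.

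The P216L libraries held 7932134, 6621100 and 3387389 estimated counts over 14815, 14494 and 12899 detected genes. The WT libraries held 5783934 and 12130358 counts over 14167 and 15889 genes. P216L replicate 3 was therefore the shallowest of the 5 and WT replicate 3 the deepest. Over 7992 genes with a mean of at least 10 CPM (a gene's count relative to the total of its library, as edgeR scales it), the median absolute log2 difference was 0.20, 0.24 and 0.32 between the 3 pairs of P216L libraries and 0.18 between the WT libraries. Between a P216L and a WT library it was 0.16 to 0.27, so libraries of different genotype stood no farther apart than libraries of 1 genotype. No pair of libraries agreed within sampling noise (chi-square per degree of freedom 9.47 to 16.2).

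The cells carried the markers of their label in both genotypes. Car2, a carbonic anhydrase of red cell precursors, was at 11244, 9509 and 11540.1 CPM in P216L libraries, against 12868 and 11135 CPM in WT libraries. Gata1, the main erythroid and megakaryocyte transcription factor, was at 475, 450.5 and 475 CPM in P216L libraries, against 450.2 and 494 CPM in WT libraries. These values overlap between the genotypes. The stem cell receptor gene Procr had 0, 0 and 0.892 CPM in P216L libraries and 0 CPM in both WT libraries. Other genes of the stem cell list were present. Cd34 was at 5.43, 4.79 and 17.8 CPM in P216L libraries, against 1.77 and 6.79 CPM in WT libraries. Hoxa9 was at 7.83, 6.73 and 5.95 CPM in P216L libraries, against 5.49 and 11.9 CPM in WT libraries. Cd3e and Cdh5, which define T cells and endothelium, stayed under 1 CPM in all 5 libraries, although other genes of these lists were present. T and NK cell genes summed to 16.5, 22.4 and 22.6 CPM in P216L libraries, against 10.3 and 19.05 CPM in WT libraries, with Nkg7, a granule protein of NK cells, the highest. Endothelial and stromal genes summed to 4.55, 19.1 and 8.62 CPM in P216L libraries, against 7.26 and 16.3 CPM in WT libraries, and Cxcl12, a stromal chemokine, reached 10.6 CPM in P216L replicate 2. The 5 listed sex-linked genes summed to 271 to 282 CPM in P216L and 254 to 313 CPM in WT libraries. The 4 tested, Kdm5d, Eif2s3y, Ddx3y and Uty, are Y-linked, and Xist was too low to be tested. Eif2s3y, the highest, was at 108, 123 and 136 CPM in P216L libraries, against 121 and 121 CPM in WT libraries.

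No gene passed the threshold between P216L and WT MEP: 0 of 10773 genes tested had an adjusted p under 0.05 (edgeR quasi-likelihood, 0% called). An unadjusted p under 0.05 was found for 552, which is 5.12% of the genes. Of these, 333 were higher (3.09%) and 219 lower (2.03%) in P216L. The smallest adjusted p was 0.256. With 3 against 2 libraries, a missing call does not show that a gene is unchanged. Without the low-count filter edgeR did call genes, among them Tspan15 (adjusted p = 4.3e-06). DESeq2 called 3 genes (Tspan15, D3Ertd751e and Crip2), limma with voom weights called 0, and edgeR without WT replicate 3 called 7 (Pkm, Tspan15, Elmo1, Plac8, F2r, D3Ertd751e and Scin). Log2 fold changes of P216L over WT were above 0 for 51.3% of genes, with a median of 0.0067.

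Etv6 itself was at 24.9, 37.3 and 32.4 CPM in P216L libraries, against 23.4 and 32.7 CPM in WT libraries. The groups overlap, and the log2 fold change was 0.15 ± 0.24 (SE, 95% interval −0.34 to 0.65; edgeR, adjusted p = 0.991). P216L is an amino acid change, so this level does not check the genotype labels.

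The size that an undetected change could have depended on the level of the gene, taken here as its mean CPM over the 10 MEP libraries. A 95% interval for each gene excluded a 2-fold change in either direction for 7654 of 10773 genes (71.0%), and a 1.5-fold change for 4621 genes (42.9%). With adjustment over all genes, an equivalence test excluded a 2-fold change for 7897 genes (73.3%) and a 1.5-fold change for 4348 genes (40.4%). Among the 79 genes at 1000 CPM or more, all had intervals within 2-fold, and the median interval reached 1.18-fold to either side. This class includes the carbonic anhydrases Car1 and Car2, the ribosomal protein gene Rpl4, the nucleolar gene Ncl and the ferritin gene Fth1. Within this class the values ran from −0.36 for D17H6S56E-5 to 0.34 for B2m, the light chain of class I molecules.

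Between 100 and 1000 CPM, 2536 of 2543 genes (99.7%) were bounded within 2-fold and 2384 (93.7%) within 1.5-fold. The extremes there were −0.64 for Crip2, a small LIM domain protein, and 0.61 for Cmtm7. Between 10 and 100 CPM, where Etv6 lies, 4799 of 5370 genes (89.4%) were bounded within 2-fold and the median interval reached 1.37-fold. Below 10 CPM, 240 of 2781 genes (8.63%) were bounded within 2-fold, the median interval reached 2.51-fold, and 33 genes had no bound at all. For most genes under 10 CPM the interval thus did not exclude a 2-fold change. Without WT replicate 3, the deepest library, the share within 2-fold was 56.6%.

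**Figure D1:**
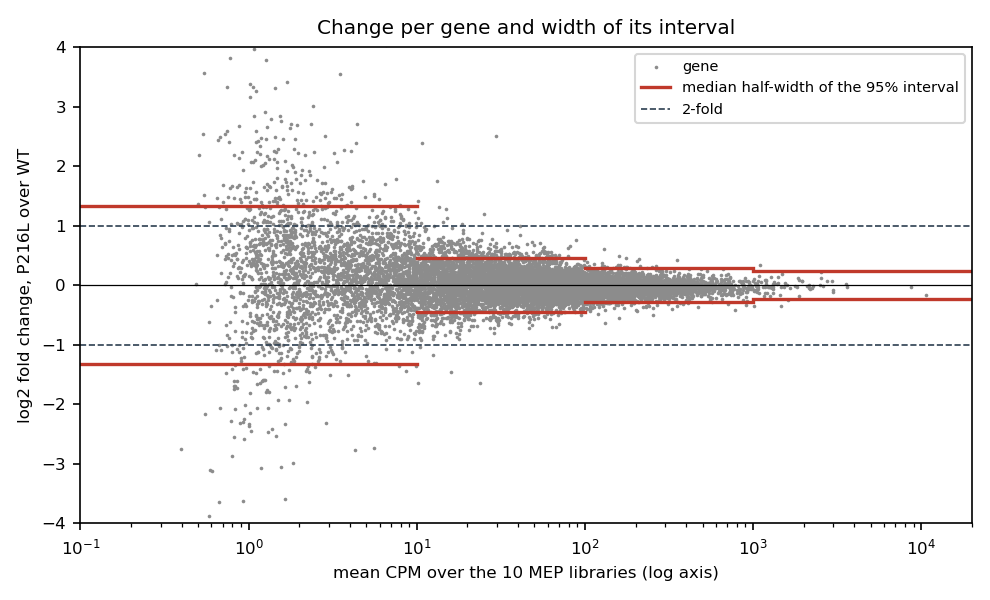
Log2 fold change of P216L over WT MEP for each gene tested (y axis) against its mean CPM over the 10 MEP libraries (x axis, log scale). Red lines give the median half-width of the 95% interval in each class of level, which narrows from 1.33 below 10 CPM to 0.24 at 1000 CPM and more; dashed lines mark 2-fold, and 19 genes lie beyond the axis limit of 4.

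The genes with the smallest p-values were of unlike function, and none reached the threshold in this test. Tspan15, a tetraspanin that partners the protease ADAM10, was at 15.5, 10.5 and 17.8 CPM in P216L libraries, against 58.3 and 32.9 CPM in WT libraries. All P216L libraries were below both WT libraries (−1.65 ± 0.30; edgeR, adjusted p = 0.256). The formin gene Fhdc1, which acts on actin and microtubules, was at 13.5, 7.33 and 8.62 CPM in P216L libraries, against 29.7 and 25.4 CPM in WT libraries. Again the groups did not overlap (−1.47 ± 0.32; edgeR, adjusted p = 0.402). Crip2 was at 108, 103 and 117 CPM in P216L libraries, against 174 and 165 CPM in WT libraries. This gene had the narrowest interval of the 3, −0.93 to −0.35 (−0.64 ± 0.14; edgeR, adjusted p = 0.402).

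The remaining low values were spread over several functions. Abat, the enzyme that breaks down GABA, had 0.631, 0.15 and 0.297 CPM in P216L libraries, against 5.84 and 3.73 CPM in WT libraries. Cnn3, an actin-binding calponin, had 136, 108 and 158 CPM in P216L libraries, against 194 and 198 CPM in WT libraries. Camsap2, which binds microtubule minus ends, had 58.2, 60.1 and 42.5 CPM in P216L libraries, against 102 and 75.8 CPM in WT libraries. In all 3 genes every P216L library was below both WT libraries, with adjusted p = 0.715 for Abat and 0.976 for the other two. Gpsm2, which orients the mitotic spindle, showed the smallest of these differences (−0.42 ± 0.12), and Ilrun, Trnp1 and Gm32687 complete the set.

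On the higher side, D3Ertd751e was at 17.6, 13.2 and 19.3 CPM in P216L libraries, against 2.83 and 6.54 CPM in WT libraries. Every P216L library was above both WT libraries (1.75 ± 0.34; edgeR, adjusted p = 0.311). The centriole gene Spice1 was at 15.4, 15.7 and 19.03 CPM in P216L libraries, against 8.14 and 5.80 CPM in WT libraries. Its groups did not overlap either (1.27 ± 0.29; edgeR, adjusted p = 0.715). Pim2, a survival kinase induced by cytokine signals, was at 9.72, 13.2 and 4.46 CPM in P216L libraries, against 3.19 and 2.32 CPM in WT libraries (1.78 ± 0.46; edgeR, adjusted p = 0.976).

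Further genes of this rank were Ube2d1, a ubiquitin-conjugating enzyme (1.12 ± 0.30), S100a10, the partner of annexin A2 (0.92 ± 0.25), Tceal1 (1.71 ± 0.47) and Acap1, a regulator of Arf6 (0.99 ± 0.27). Akr1c13, a member of the aldo-keto reductases (1.03 ± 0.27), is uncertain because near-identical relatives can share its reads. The histone gene H2ac18 had 3.03, 1.20 and 2.68 CPM in P216L libraries and none in WT libraries. Its P216L mean was at least 13.6-fold higher when WT is given 3 counts over its summed libraries. H2ac18 was also at 0 CPM in all S211I and double-mutant libraries, so it passed the expression filter only through P216L. Its rank and its lack of overlap are therefore partly set by the filter. The pseudogene Morf4l1-ps1 had 3.54, 3.14 and 0 CPM in P216L libraries and none in WT libraries. Its P216L mean was 13.1-fold the same WT floor, but P216L replicate 3 was at 0 like WT, so the groups overlap. Both resemble other copies, so their reads may belong elsewhere.

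**Figure D2:**
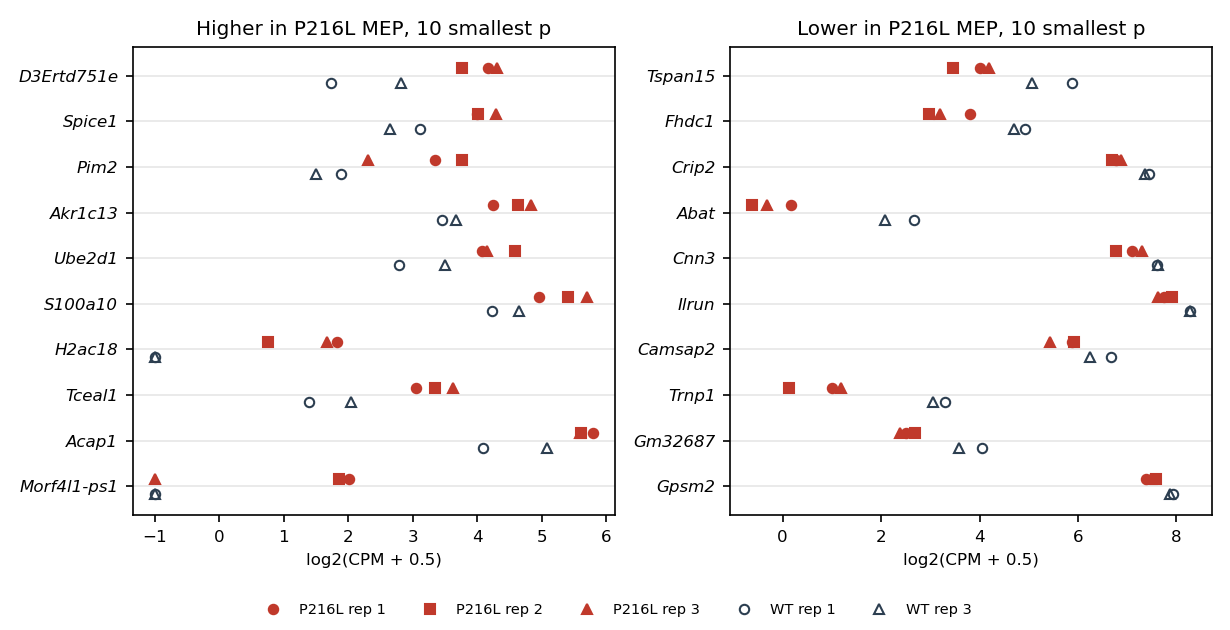
Level of the 10 genes with the smallest p in each direction, as log2(CPM + 0.5), in each P216L library (filled red, upper in each row) and each WT library (open, lower). Except for Morf4l1-ps1, whose P216L replicate 3 is at 0 like WT, the P216L and WT symbols of a row do not overlap, yet no gene passed the adjusted threshold.

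The WT libraries are also the controls of the other genotypes, so a WT library that stands apart moves all of these comparisons together. For Tspan15 the log2 difference from WT was −1.65 ± 0.30 in P216L, −0.85 ± 0.32 in S211I and −1.42 ± 0.30 in the double mutant. For D3Ertd751e it was 1.75 ± 0.34 in P216L, 1.75 ± 0.37 in S211I and 1.39 ± 0.34 in the double mutant. For Spice1 it was 1.27 ± 0.29 in P216L, 1.35 ± 0.32 in S211I and 1.30 ± 0.29 in the double mutant. These values lie side by side, and whether they come from the genotypes or from the shared WT libraries cannot be told apart. Set against each other, P216L and S211I MEP differed at 0 of 10773 genes (edgeR, 0% called), with 594 genes (5.51%) at an unadjusted p under 0.05 and 2 genes called by DESeq2.

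The erythroid and megakaryocyte transcription factors were bounded tightly. Of 18 tested, 0 passed the threshold, 8 had a log2 fold change above 0, the median was −0.0086 (−0.024 without P216L replicate 1, 0.070 without P216L replicate 3) and all 18 intervals lay within 2-fold. Klf1, the master factor of erythroid genes, was at 768, 641 and 637 CPM in P216L libraries, against 713 and 641 CPM in WT libraries (0.012 ± 0.12; edgeR, adjusted p = 0.998). Its interval allows between 0.851 and 1.19 times the WT level. Gata1, given above, had an interval of −0.24 to 0.21. Myb, a factor of immature progenitors, was at 509, 561 and 485 CPM in P216L libraries, against 428 and 481 CPM in WT libraries. Its P216L values lay just above WT (0.19 ± 0.11; edgeR, adjusted p = 0.984). Nfe2, which drives late megakaryocyte genes, and Runx1, a partner of Gata1, also lay above WT without overlap, at 0.20 ± 0.13 and 0.34 ± 0.24. With Myb these are 3 of 18, or 16.7%, against 9.44% of all genes with every P216L library above both WT libraries.

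Red cell membrane and globin genes had 26 tested members, 10 above 0 and a median of −0.057. Rhag, a membrane channel of the Rh complex, was at 694, 655 and 786 CPM in P216L libraries, against 1034 and 855 CPM in WT libraries. All P216L values were below WT (−0.41 ± 0.12; unadjusted p = 0.00346; edgeR, adjusted p = 0.976). Rhag, Cldn13, Add2 and Ank1 lay wholly below WT, 4 of 26 or 15.4%, against 8.30% of all genes with every P216L library below both WT libraries. Kel, which carries a blood group antigen, and Dmtn lay wholly above. Without WT replicate 1, which had the highest Rhag and Cldn13, the list median was 0.022, and without WT replicate 3 it was −0.18.

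Globin genes varied more between libraries than between genotypes. Hbb-bs, an adult beta globin gene, was at 102, 275 and 479 CPM in P216L libraries, against 251 and 165 CPM in WT libraries. P216L replicates 1 and 3 stood on opposite sides of both WT libraries (0.45 ± 0.66). Hbb-bs and Hbb-bt, like Hba-a1 and Hba-a2, are close copies whose reads can be split between them.

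In heme synthesis 17 genes were tested, with 7 above 0 and a median of −0.11, which was −0.17 without WT replicate 3 and −0.0070 without WT replicate 1. Fech, which inserts iron into heme, was at 897, 760 and 790 CPM in P216L libraries, against 945 and 990 CPM in WT libraries. The P216L libraries lay below WT (−0.25 ± 0.11; edgeR, adjusted p = 0.976). In iron handling 15 genes were tested, with 8 above 0 and a median of 0.011, which was −0.051 without P216L replicate 1. Aco1, an enzyme that doubles as an iron sensor, was at 215.7, 241 and 207 CPM in P216L libraries, against 288 and 291 CPM in WT libraries. It lay wholly below WT (−0.39 ± 0.12; edgeR, adjusted p = 0.976), as did Ireb2, the other iron-regulatory protein (−0.48 ± 0.21), and Slc40a1 (−0.16 ± 0.13). These were 3 of 15 (20%, against 8.30% of all genes), and none lay wholly above. Tfrc, the transferrin receptor, overlapped (0.039 ± 0.15).

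Megakaryocyte genes were low in these cells, and few could be bounded. Of 22 listed, 14 were tested, 8 were above 0, the median was 0.12 and 3 intervals lay within 2-fold. The median was −0.14 without WT replicate 1 and 0.26 without WT replicate 3. Gp5, a platelet glycoprotein and the highest surface gene of this list, was at 67.5, 58.8 and 60.4 CPM in P216L libraries, against 52.2 and 68.6 CPM in WT libraries. The groups overlap (0.038 ± 0.21). Itga2b, the platelet integrin CD41, was at 19.2, 11.7 and 14.9 CPM in P216L libraries, against 12.2 and 27.2 CPM in WT libraries, where WT replicate 3 was the highest (−0.39 ± 0.35). Mmrn1, an alpha granule protein shared with stem cells, was at 2.53, 7.18 and 2.68 CPM in P216L libraries, against 16.1 and 4.72 CPM in WT libraries. Its value rests on WT replicate 1: it was −1.28 ± 0.57 with that library and −0.17 without it. In bulk samples like these, fewer cells of a type and less RNA per cell cannot be told apart.

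Among ETS family genes, 15 were tested, 10 lay above 0 and the median was 0.15. Gabpa, the ETS subunit of a factor for mitochondrial and housekeeping genes, was at 101, 90.8 and 82.7 CPM in P216L libraries, against 124 and 116 CPM in WT libraries. It lay wholly below WT (−0.39 ± 0.16; edgeR, adjusted p = 0.976), as did Elk1. Elk3, Elf2 and Ets1 lay wholly above it, at 1.35 ± 0.59, 0.49 ± 0.24 and 1.13 ± 0.61. These were 3 of 15 above (20%, against 9.44% of all genes) and 2 of 15 below (13.3%, against 8.30%). Elk3 and Ets1 were under 10 CPM in all 5 libraries. The list median was −0.022 without WT replicate 1 and 0.48 without WT replicate 3.

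The co-repressors and modifiers of Etv6 lay close to WT. Of 15 tested, 7 were above 0, the median was −0.011 (0.074 without P216L replicate 2), and 12 intervals lay within 1.5-fold. Hdac3, a histone deacetylase, was at 163, 151 and 156 CPM in P216L libraries, against 145 and 146 CPM in WT libraries. Its P216L values lay just above WT (0.11 ± 0.13), and its interval allows between 0.895 and 1.30 times the WT level. Hdac1, another deacetylase, was at 0.13 ± 0.12.

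Genes with and without an ETS motif in the promoter had nearly the same median. The letters CCGGAAG, on either strand, were found in 8.86% of 32851 RefSeq promoter windows (250 bases before to 50 after the start, GRCm38.p6). Of the 1991 tested genes with the motif, 1010 had a log2 fold change above 0 and the median was 0.0033. Of 6751 tested genes with a window but no motif, 3432 were above 0 and the median was 0.0053.

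Interferon-stimulated genes had the highest median of the pathway lists, though none passed the threshold. Of 28 listed, 22 were tested, 16 lay above 0 and the median was 0.46, against 0.0067 for all genes and 0.16 for all genes under 10 CPM, the class that holds part of these members. In 7 of the 22 (31.8%, against 9.44% of all genes) every P216L library was above both WT libraries, and in none was every one below. The 7 were Irf7, Oas3, Oasl2, Rtp4, Bst2, Xaf1 and Gbp2. Their promoters are shown for a motif that interferon-responsive factors bind, GAAANNGAAA, which was chosen after the values were seen. It was found on either strand in 3.44% of the 32851 windows, in 10 of 16 tested list members with a window, and in 3 of 6 with a window among those wholly above WT. Capitals mark it in the RefSeq sequences of Oas3 (chr5:120777660-120777909, minus strand, 1 match) and Bst2 (chr8:71537473-71537722, minus strand, 2 overlapping matches), each running from 250 bases before the gene's start up to it (GRCm38.p6). A match describes letters, not a site in use.

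Oas3: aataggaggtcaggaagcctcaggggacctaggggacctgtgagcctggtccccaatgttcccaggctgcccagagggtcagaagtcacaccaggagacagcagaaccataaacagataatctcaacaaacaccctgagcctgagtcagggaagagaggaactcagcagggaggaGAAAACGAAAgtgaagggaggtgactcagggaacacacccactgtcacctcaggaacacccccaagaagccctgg
Bst2: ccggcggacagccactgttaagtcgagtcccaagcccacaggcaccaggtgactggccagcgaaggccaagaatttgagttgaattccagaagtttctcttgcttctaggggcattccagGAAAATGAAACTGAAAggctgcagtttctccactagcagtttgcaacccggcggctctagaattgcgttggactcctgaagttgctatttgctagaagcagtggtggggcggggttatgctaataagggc

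Irf7, which amplifies the interferon response, was at 40.5, 16.9 and 19.03 CPM in P216L libraries, against 13.3 and 16.4 CPM in WT libraries. P216L replicate 1 was far above the rest and the other two lay close to WT (0.79 ± 0.33; edgeR, adjusted p = 0.976). Bst2, which tethers budding virus to the cell, was at 19.1, 23.5 and 29.4 CPM in P216L libraries, against 17.4 and 14.3 CPM in WT libraries (0.59 ± 0.27). Oas3, a sensor of double-stranded RNA, was at 3.54, 3.74 and 2.97 CPM in P216L libraries, against 0 and 1.57 CPM in WT libraries (1.92 ± 0.88). Here the P216L libraries were close together and above WT, at levels of a few CPM.

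Rtp4 was at 17.4, 7.18 and 7.14 CPM in P216L libraries, against 5.13 and 6.38 CPM in WT libraries, with P216L replicate 1 again highest (0.89 ± 0.42). Several more abundant members overlapped. Stat2, which carries interferon signals to the nucleus, and Gbp7 stood at −0.0035 ± 0.20 and 0.18 ± 0.16, and Ifih1, a viral RNA sensor, was lower at −0.38 ± 0.24. The summed list was 679, 497 and 486 CPM in P216L libraries, against 445 and 483 CPM in WT libraries. The list median was 0.21 without P216L replicate 1 and between that and 0.58 with any other library left out. The same list had a median of 0.26 in S211I and 0.067 in the double mutant against the shared WT libraries.

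Class I antigen presentation genes differed more between the WT libraries than between genotypes. All 23 were tested, 17 were above 0 and the median was 0.16. The median difference from the WT mean was 0.28, 0.14 and 0.24 in P216L libraries, against −0.24 and 0.24 in WT libraries. B2m was at 1143, 1226 and 1151 CPM in P216L libraries, against 788 and 1061 CPM in WT libraries. WT replicate 1 was the lowest of the 5 (0.34 ± 0.13; edgeR, adjusted p = 0.976). Psmb9, an immunoproteasome subunit, was at 65.4, 55.2 and 63.9 CPM in P216L libraries, against 31.3 and 52.2 CPM in WT libraries (0.54 ± 0.20). The list median was −0.046 without WT replicate 1 and 0.43 without WT replicate 3, so its sign depended on which WT library was kept.

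Neutrophil granule genes were all above 0 in P216L, as they were in the other genotypes against the same WT libraries. Of 16 listed, 11 were tested, with a median log2 fold change of 2.23, and 3 lay wholly above WT (27.3%, against 9.44% of all genes). The summed list was 33.5, 45.8 and 180 CPM in P216L libraries, against 3.01 and 21.2 CPM in WT libraries. All P216L libraries were above both WT libraries, with P216L replicate 3 the highest and WT replicate 1 the lowest. Against the shared WT libraries, 11 of 11 were also above 0 in S211I (median 1.99) and in the double mutant (median 1.79). The expression filter can admit a gene through any group of MEP libraries. With the whole list at 3.01 CPM in WT replicate 1, members could hardly pass that filter through WT. The shared side, the medians and the share wholly above WT are therefore partly set by the filter. Mpo, the granule peroxidase, was at 22.5, 26.6 and 80.9 CPM in P216L libraries, against 1.06 and 12.2 CPM in WT libraries (2.51 ± 1.08; edgeR, adjusted p = 0.984). S100a9, an alarmin subunit, was at 2.40, 0.898 and 10.1 CPM in P216L libraries, against 0.708 and 0.745 CPM in WT libraries. Mmp8, a collagenase of granules, had 0.884, 1.20 and 3.27 CPM in P216L libraries and none in WT libraries, at least 10.5-fold higher on the P216L mean. The bound of Mmp8 lies above the list median, so the median is the same with Mmp8 at its bound.

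Monocyte and dendritic cell genes were mixed. Of 10 tested, 7 were above 0 and the median was 0.24, which was −0.093 without P216L replicate 3 and 3.02 without WT replicate 3. Lyz2, lysozyme of monocytes and neutrophils, was at 14.01, 3.44 and 40.4 CPM in P216L libraries, against 3.01 and 3.97 CPM in WT libraries (2.38 ± 0.79). P216L replicate 3 was the highest and replicate 2 lay within WT. Cd74, the invariant chain of class II molecules, was at 9.47, 8.08 and 2.97 CPM in P216L libraries, against 3.36 and 18.3 CPM in WT libraries, so P216L replicate 3 was the lowest (−0.65 ± 0.90). The summed list was at 125 to 218 CPM in P216L and 113 to 150 CPM in WT libraries. The stem cell list summed to 149 to 189 CPM in P216L and 124 to 170 CPM in WT libraries. Among neutrophil markers Cebpe was at 0 in all 5 libraries, and Mmp9 was at 0 in all but P216L replicate 3. The neutrophil median was 1.17 without P216L replicate 3 and 5.47 without WT replicate 3, a fitted value for which most members stand against 0 counts in WT. The part of other cells in the sort in these values was not tested.

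**Figure D3:**
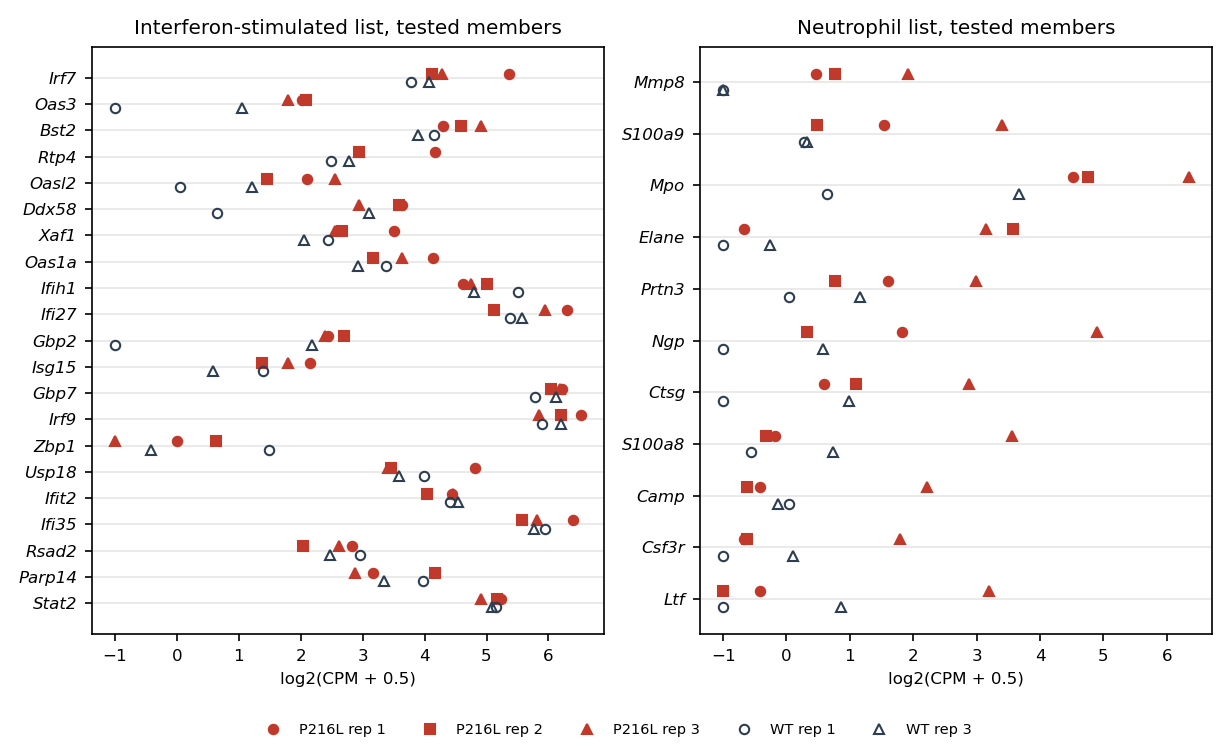
Level of 21 of the 22 tested interferon-stimulated genes (left) and 11 tested neutrophil genes (right), as log2(CPM + 0.5), in each P216L library (filled red, upper in each row) and each WT library (open, lower), ordered by p. P216L replicate 1 leads for Irf7 and Rtp4, whereas P216L replicate 3 leads for 10 of the 11 neutrophil genes, Elane being the exception.

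Small values on the same side ran through the cell division genes. Of 30 G2 and mitosis genes, 8 were above 0 and the median was −0.11, against −0.025 for all genes of 100 to 1000 CPM. In 9 of the 30 (30.0%, against 8.30% of all genes) every P216L library was below both WT libraries, and in none was every one above. Anln, a scaffold of the cleavage furrow, was at 102, 102 and 87.7 CPM in P216L libraries, against 134 and 119 CPM in WT libraries (−0.37 ± 0.14; edgeR, adjusted p = 0.976). Mki67, the proliferation antigen, was at 199, 229 and 219 CPM in P216L libraries, against 255 and 256 CPM in WT libraries (−0.24 ± 0.13). Aurka, a spindle kinase, was at 131, 131 and 141 CPM in P216L libraries, against 165 and 160 CPM in WT libraries (−0.27 ± 0.16). In each both WT libraries were above all P216L libraries; for Anln the WT libraries were about as far apart as the P216L libraries.

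The summed mitosis list was 5029, 5055 and 5286 CPM in P216L libraries, against 5532 and 5523 CPM in WT libraries, without overlap. Its median stayed between −0.14 and −0.11 whichever of the 5 libraries was left out. Of the 30 members, 29 had intervals within 2-fold and 23 within 1.5-fold, and Cdc25b, a phosphatase that starts mitosis, pointed the other way (0.70 ± 0.46). Against the same WT libraries the list median was 0.031 in S211I and −0.048 in the double mutant. The difference between the genotypes in this list was not tested.

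S phase genes showed the same side with smaller values. Of 34 tested, 7 were above 0, the median was −0.061, all 34 intervals lay within 2-fold and 32 within 1.5-fold. The median was −0.13 without WT replicate 3 and −0.019 without WT replicate 1. Rrm2, the regulated subunit of ribonucleotide reductase, was at 698, 699 and 570.0 CPM in P216L libraries, against 878 and 757 CPM in WT libraries (−0.32 ± 0.13; edgeR, adjusted p = 0.976). Mcm6, a helicase subunit, was at 1358, 1280.5 and 1219 CPM in P216L libraries, against 1303 and 1339.9 CPM in WT libraries (−0.039 ± 0.10). Rfc2 alone lay wholly above WT (0.24 ± 0.12), and 5 of the 34 lay wholly below (14.7%, against 8.30%).

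Regulators of the cycle included E2f2, an activator of S phase genes, at 10.9, 17.8 and 9.22 CPM in P216L libraries, against 19.5 and 27.9 CPM in WT libraries (−0.90 ± 0.31). In this list 4 of 15 were above 0 and the median was −0.10, between −0.17 without P216L replicate 2 and −0.040 without WT replicate 3. In 5 of the 15 (33.3%, against 8.30% of all genes) every P216L library was below both WT libraries. These were the brakes Rb1, Cdkn1b and Cdkn1a (under 2 CPM in all 5 libraries) besides E2f2 and E2f4. The activator E2f2 thus lay on the same side as these inhibitors. Among 18 p53 targets 6 were above 0 and the median was −0.16. Mdm2, Ccng1, Aen, Zmat3 and Cdkn1a lay wholly below WT, 5 of 18 or 27.8%, against 8.30% of all genes. The smallest p of the list was on the other side: Mdm4, an inhibitor of p53, was at 63.6, 80.8 and 51.4 CPM in P216L libraries, against 36.5 and 56.2 CPM in WT libraries (0.49 ± 0.20, unadjusted p = 0.0274; edgeR, adjusted p = 0.976). Its groups overlap. Trp53 itself was at 334, 285 and 354 CPM in P216L libraries, against 296 and 258 CPM in WT libraries (0.23 ± 0.12).

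The medians of growth genes had opposite signs for nucleus and mitochondrion, but this opposition did not hold without P216L replicate 3. Of 26 Myc target and nucleolar genes, 5 were above 0 and the median was −0.085, with 23 intervals within 1.5-fold. The median was −0.15 without P216L replicate 2 and −0.043 without P216L replicate 3. Ddx21, a nucleolar helicase, was at 213, 255 and 209 CPM in P216L libraries, against 279 and 278 CPM in WT libraries (−0.30 ± 0.13). Of 39 nuclear transport genes, 8 were above 0 and the median was −0.089. Its median turned to 0.029 without P216L replicate 3 and was −0.24 without P216L replicate 2.

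Mitochondrial ribosomal protein genes had 60 of 78 above 0 and a median of 0.096, with 77 intervals within 2-fold and 71 within 1.5-fold. Mrpl57 was at 31.1, 25.1 and 31.2 CPM in P216L libraries, against 22.8 and 19.5 CPM in WT libraries, without overlap (0.46 ± 0.22). In 8 of the 78 (10.3%, near the 9.44% of all genes) every P216L library was above WT. Oxidative phosphorylation had 55 of 76 above 0 and a median of 0.049. Both medians turned negative without P216L replicate 3, at −0.0045 and −0.072, while the mitochondrial ribosomal median was 0.17 without P216L replicate 2 and the oxidative phosphorylation median 0.15 without WT replicate 1. Cytosolic ribosomal protein genes had 21 of 79 above 0 and a median of −0.053, which was 0.087 without WT replicate 1 and −0.18 without WT replicate 3. Their summed level was 32338, 31074 and 39917 CPM in P216L libraries, against 38485 and 32462 CPM in WT libraries, so libraries of 1 genotype differed more than the genotypes.

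**Figure D4:**
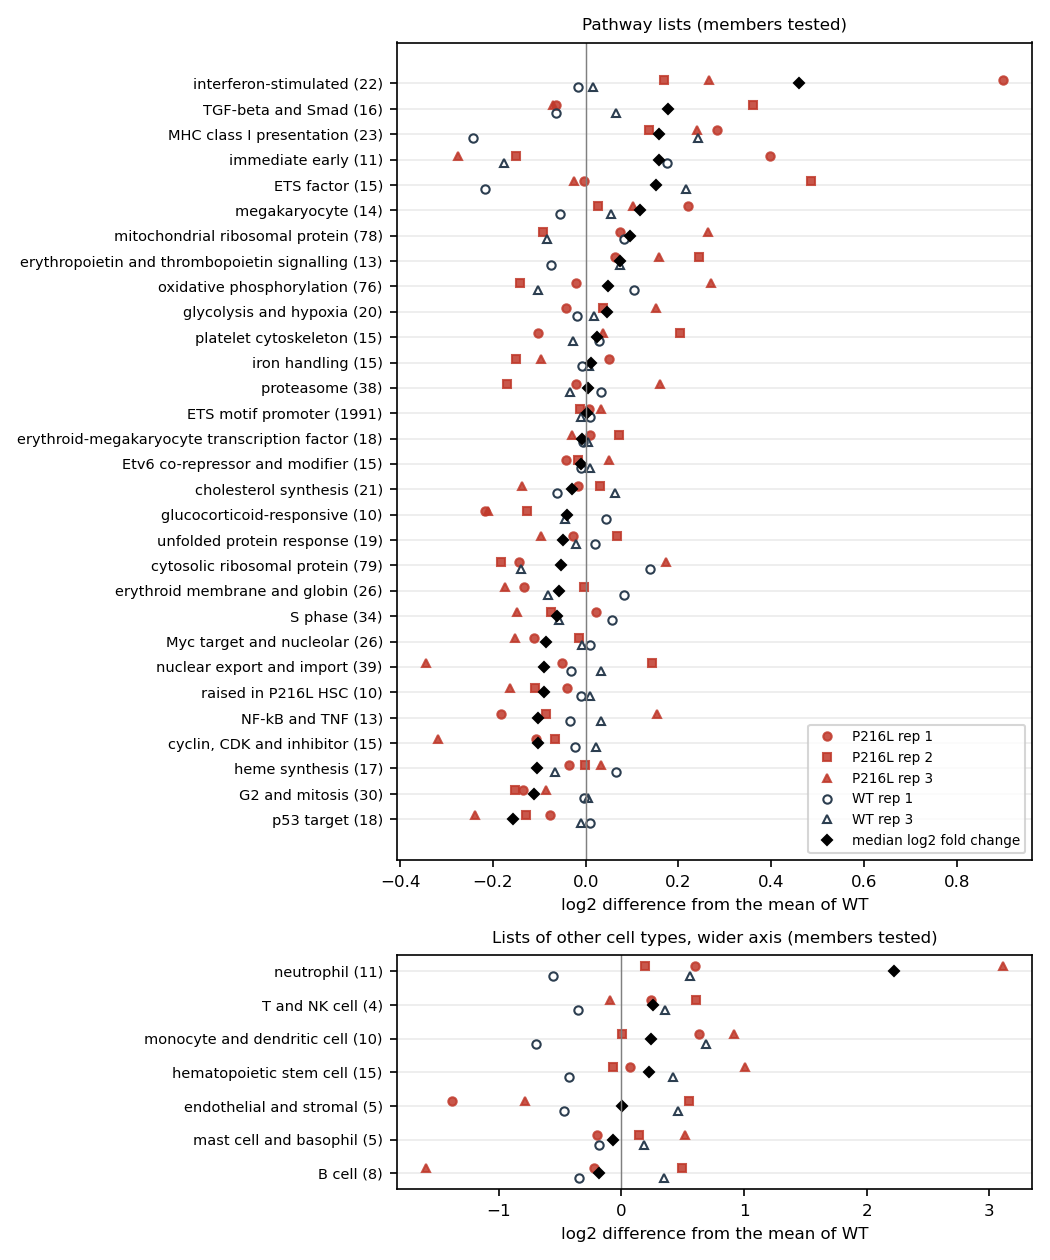
Median log2 difference from the WT mean over the tested members of each list (number in brackets), by library, for P216L (filled red, upper in each row) and WT (open, lower), with the median fitted log2 fold change as a black diamond. The lower panel has a wider axis; library values are differences of log2(CPM + 0.5) and diamonds come from the fit, so the 2 can differ for low genes. In the mitosis list the 3 P216L libraries lie at −0.13, −0.15 and −0.085 and the WT libraries at −0.0041 and 0.0041, while in the ribosomal lists P216L replicate 3 stands apart from the other P216L libraries.

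Of the remaining pathway lists, 3 kept the sign of their median with any 1 library left out. TGF-beta and Smad genes had a median of 0.18, which was 0.038 without P216L replicate 2 and 0.43 without WT replicate 3. Glycolysis and hypoxia had 0.047, between 0.0078 without P216L replicate 3 and 0.11 without P216L replicate 1, and NF-kB and TNF genes had −0.10, between −0.19 without WT replicate 3 and −0.016 without P216L replicate 1. Immediate early genes had a median of 0.16, which turned to −0.11 without P216L replicate 1 and was 0.34 without P216L replicate 3. The medians of the platelet cytoskeleton, proteasome, unfolded protein response and cholesterol synthesis lists lay between −0.048 and 0.024, and each also changed sign with a library left out. In erythropoietin and thrombopoietin signalling 3 of 13 members (23.1%, against 9.44% of all genes) lay wholly above WT, namely Ptpn6, Grb2 and Lyn, and none below. Its median was 0.075, and −0.037 without WT replicate 1. Among glucocorticoid-responsive genes 2 of 10 (20%, against 8.30%) lay wholly below, namely Tsc22d3 and Fkbp5, and 1 wholly above. Their median was −0.040, and 0.048 without WT replicate 3. Kit, the stem cell factor receptor, was at 659, 761 and 465 CPM in P216L libraries, against 568 and 688 CPM in WT libraries. Asns, asparagine synthetase, was at 741, 846 and 864 CPM in P216L libraries, against 1069.9 and 977 CPM in WT libraries, wholly below (−0.32 ± 0.12; edgeR, adjusted p = 0.976). The medians of the B cell, T and NK cell, mast cell, and endothelial and stromal lists, over 4 to 8 tested members each, all changed sign with a library left out. Sparc, a matrix protein of stromal cells, had 0.253, 0.15 and 0 CPM in P216L libraries, against 2.12 and 2.32 CPM in WT libraries (−3.65 ± 1.39; edgeR, adjusted p = 0.976).

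The comparison of double-mutant with P216L MEP gave the only differences between MEP groups that involve P216L and passed the threshold. Double-mutant against P216L MEP had 12 of 10773 genes (0.111%) past it, 1 higher (0.00928%) and 11 lower (0.102%), and 4.27% had an unadjusted p under 0.05. The count was 5 without P216L replicate 1 or without double-mutant replicate 1, and 20 without P216L replicate 3. Mbd2, a reader of methylated DNA, was at 210, 174 and 213 CPM in double-mutant libraries, against 409, 381 and 373 CPM in P216L libraries. It was lower in the double mutant by 0.96 ± 0.11 on the log2 scale (edgeR, adjusted p = 0.00017). The P216L value itself was −0.28 ± 0.12 against WT, where Mbd2 was at 457 and 485 CPM. Cul3, the scaffold of a ubiquitin ligase, was at 77.5, 77.8 and 79.2 CPM in double-mutant libraries, against 187, 153 and 137 CPM in P216L libraries. It was lower in the double mutant by 1.03 ± 0.13 (edgeR, adjusted p = 0.00079), while P216L was at −0.0097 ± 0.15 against WT.

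Ybx3, an RNA-binding cold shock protein, and Qk, a splicing regulator, were lower in the double mutant by 0.86 ± 0.10 and 1.08 ± 0.15 (edgeR, adjusted p = 0.00032 and 0.00085). P216L alone was at −0.029 ± 0.11 and 0.093 ± 0.16 against WT for these genes. Znrf2, Serpina3g, Egln1, Khdrbs3, Ppp2cb, Plek and Spon2 were the other lower genes. Bex4 was the higher one, at 69.8, 71.1 and 85.5 CPM in double-mutant libraries, against 26.4, 21.99 and 38.1 CPM in P216L libraries (1.41 ± 0.23; edgeR, adjusted p = 0.0112). All 12 genes had adjusted p of 0.976 or more in P216L against WT.

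Genes that an earlier comparison of these data found raised in P216L HSC mostly lay just below the WT level in P216L MEP. All 10 were tested in MEP, 3 were above 0, the median was −0.091, all 10 intervals lay within 2-fold and 8 within 1.5-fold. Rrm1, Rrm2 and Fech lay wholly below WT, 3 of 10 or 30%, against 8.30% of all genes, and none lay wholly above. The summed list was 8012, 7451 and 7968 CPM in P216L libraries, against 8536 and 8274 CPM in WT libraries, without overlap. Its median stayed between −0.13 and −0.086 whichever of the 5 libraries was left out. The difference between the genotypes in this list was not tested. On the scale of a fit over all 21 libraries, Rrm1, the large subunit of ribonucleotide reductase, was at 1407, 1297 and 1302 CPM in P216L MEP, against 1467 and 1452 CPM in WT MEP. In HSC it was at 372, 616 and 1504 CPM in P216L, against 7.89, 1.82 and 51.4 CPM in WT. Rrm1 is on a list chosen as raised in P216L HSC in these data, so the HSC side of this contrast was set by that choice. In MEP, P216L lay just below WT.

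The P216L change of Rrm1 in MEP was lower than that in HSC by 5.43 ± 1.00 on the log2 scale (edgeR interaction, adjusted p = 0.0294). The interaction passed for 12 of 12036 genes (0.0997%; 16.2% at an unadjusted p under 0.05), all with the lower change in MEP. The count was 0 without any one of the 5 MEP libraries or without WT HSC replicate 2. It was 78, 19 and 51 without P216L HSC replicate 1, 2 or 3, and 28 and 76 without WT HSC replicate 1 or 3. It was 5 without the library labelled S211I HSC replicate 2, which held 13154016 counts, more than any other HSC library. WT HSC were at 0 CPM in all 3 libraries for 8 of these 12 genes. Racgap1, which acts in cytokinesis, was at 137, 152 and 139 CPM in P216L MEP, against 139 and 177 CPM in WT MEP. In HSC it was at 663, 106 and 243 CPM in P216L, against 0 CPM in all WT libraries. In MEP alone its interval was −0.46 to 0.17. The HSC libraries of these 2 groups held 151216 to 850136 counts, and the spread between libraries was far larger in HSC (biological coefficient of variation 1.6) than in MEP (0.174).

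**Figure D5:**
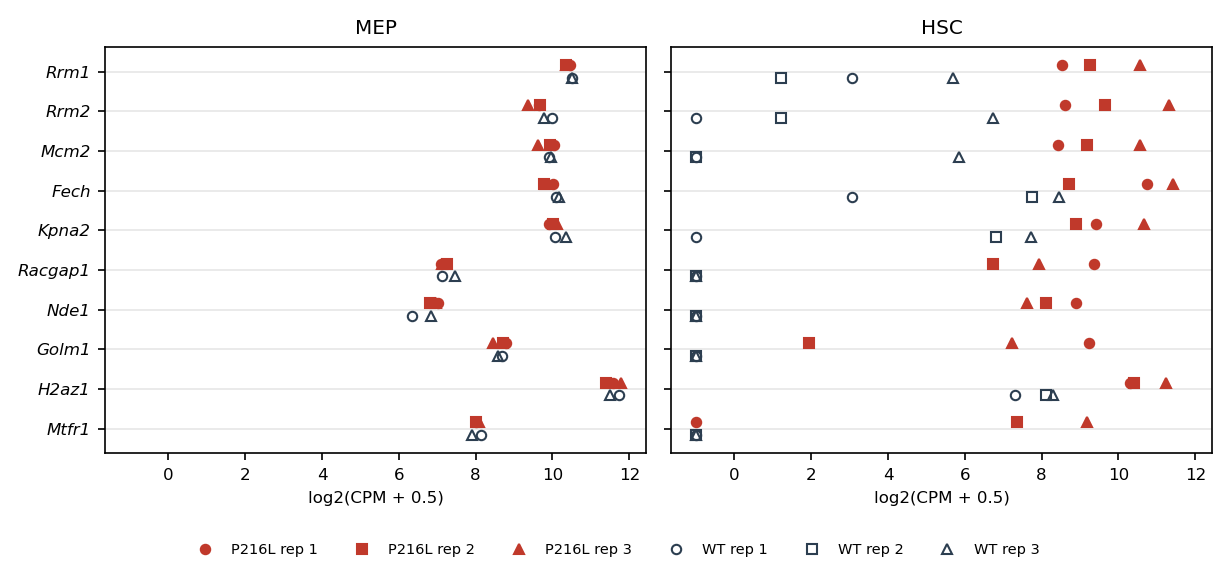
Level of the 10 genes raised in P216L HSC, as log2(CPM + 0.5) on the scale of the fit over all libraries, in MEP (left) and HSC (right), with P216L filled red (upper in each row) and WT open (lower). In MEP the P216L and WT symbols lie within 1 log2 unit of each other for every gene, while in HSC several WT symbols are at 0 CPM, drawn at −1. The genes were chosen as raised in P216L HSC, so the difference in the HSC panel was set by that choice.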

How the data were processed

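Estimated counts per gene were deposited by the authors, and the submitters' processing notes list Salmon, FastQC and GRCm39 without versions. RNA was extracted with NucleoSpin RNA XS and libraries were made with SMART-Seq v4, per the labels' protocols. The table held 30519 genes, with symbols for 30211 through a GRCm38.p6 annotation, and counts were rounded to whole numbers. The labels write S211I in titles and P211I in the genotype field; the title form is used. Mitochondrially encoded genes were not analysed here, and some list members counted in the lists are not reported singly.

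All 10 MEP libraries were fitted together with edgeR 4.0.16 (limma 3.58.1, R 4.3.3): TMM scaling, edgeR's expression filter (count 10, total 15), robust quasi-likelihood fits by group, and Benjamini-Hochberg adjustment at 0.05. Intervals are pointwise at 95%, from the standard error of the fitted model. A fit of all 21 libraries (12036 genes) gave the test between cell types. CPM uses TMM-scaled totals. Counting intervals and floors of 3 counts cover counting error only. Alternatives were RLE factors, no filter, replicate number as a block, voom with quality weights, leaving out each library, fitting the compared groups alone, and DESeq2 1.42.0.

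The libraries and 38 gene lists were chosen with earlier results of these data known. Named genes were Etv6, the 10 smallest p in each direction, in each list the smallest p and the highest level, the genes raised in P216L HSC, the 5 smallest interaction p and the sex-linked list. Other genes named were chosen after their values were seen.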

Additional observations from a re-analysis of the deposited data

Results flagged for a closer look

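The P216L effect differed between cell types at 12 genes by the interaction test (edgeR, adjusted p under 0.05), each with the lower change in MEP. For Racgap1, Sec24c, Atad2 and Pus7 the adjusted p of the difference was 0.0268, and for Rrm1 it was 0.0294. On the scale of the fit over all libraries, Sec24c, a vesicle coat protein gene, was at 226, 271 and 161 CPM in P216L MEP, against 190 and 234 CPM in WT MEP, and at 580, 182 and 508 CPM in P216L HSC, against 3.94, 1.82 and 3.67 CPM in WT HSC. Atad2, a chromatin ATPase gene, and Pus7, a pseudouridine synthase gene, were at 0 CPM in all WT HSC libraries. In MEP their P216L changes were −0.26 ± 0.17 and −0.11 ± 0.14, inside the spread between libraries. The depth of the WT HSC libraries and the spread in HSC move with these values, and their part in the result was not tested.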

How the results depend on the processing

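Counts of genes past the threshold moved with the tool and the filter. For P216L against WT the count was 0 with RLE factors, the groups compared only, the replicate block and voom, 3 with DESeq2, 10 without the low-count filter and 0 to 7 with a library left out. For P216L against S211I it was 2 with DESeq2, 3 without the filter and 0 with any library left out. For the double mutant against P216L it was 27 with DESeq2, 47 without the filter, 34 with voom and 5 to 20 with a library left out. The difference between MEP and HSC gave 943 genes with DESeq2, 1 with the replicate block, 0 with voom, 5 without the library labelled S211I HSC replicate 2 (chosen after seeing the data) and 0 to 78 with a library left out. The share of genes bounded within 2-fold was 35.0% without the filter, 68.6% with the replicate block, 72.6% with voom and 56.6% to 69.9% with a library left out. The causes were not tested. Replicate numbers were not treated as pairs in the main fit. Numbers 1 and 3 are shared by P216L and WT, and their deviations correlated at 0.0097 and −0.064. The deviations of the WT libraries mirror each other, so these values cannot settle whether the numbers pair samples.

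Of 1084 values of named genes, 76 changed sign, 55 of them with a library left out, and 67 of 418 list medians changed sign. With the replicate block the log2 fold change was −0.0015 for Klf1, −0.15 for Kit, −0.60 for Pecam1, −0.056 for Eif2s3y, 0.027 for H2az1, −0.028 for Golm1, −0.017 for Uty and −0.0042 for Sec24c. With voom it was −0.067 for Etv6, −0.13 for Pecam1, 0.18 for Jund, −0.096 for Ldha, 0.037 for Hspa5, −0.079 for Eif2s3y, 0.0043 for Mcm2 and −0.0050 for Uty. Without the filter it was −0.0059 for Kit, −0.0090 for Pecam1, −0.00054 for Eif2s3y and −0.0011 for Mtfr1, and with only the groups compared −3.8e-05 for Kit.

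With a library left out, values spanned 0 for these genes: Etv6 −0.062 to 0.43, Klf1 −0.079 to 0.086, Kit −0.16 to 0.18, Pfn1 −0.036 to 0.16, Txnip −0.070 to 0.62, Cd79a −1.08 to 0.0016, Pecam1 −0.43 to 0.74, Jund −0.49 to 0.18, Mt1 −0.18 to 0.11, Cdk4 −0.027 to 0.10, Ncl −0.084 to 0.00037, Ldha −0.090 to 0.15, Hspa5 −0.14 to 0.081, Sqle −0.12 to 0.30 and Ran −0.010 to 0.14. The same held for Smad2 −0.0027 to 0.17, Kdm5d −0.91 to 0.54, Eif2s3y −0.072 to 0.095, H2az1 −0.12 to 0.095, Rpl35 −0.51 to 0.035, Rpl4 −0.15 to 0.033, Mrpl18 −0.046 to 0.14, Psmd2 −0.14 to 0.052, Eif5a −0.084 to 0.12, Mcm2 −0.14 to 0.054, Racgap1 −0.31 to 0.040, Golm1 −0.039 to 0.11, Mtfr1 −0.11 to 0.13, Ddx3y −0.34 to 0.20, Uty −0.099 to 0.20 and Sec24c −0.12 to 0.23. Among genes under 10 CPM, 33 had no bound.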
